A study of Mus musculus with 8 samples.

Results

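The genes described here encode the proteins of the cytosolic ribosome. They were taken from the expression tables by symbol: Rpl or Rps followed by a number and at most one of the letters a, x, y or l, with Rplp0, Rplp1, Rplp2 and Rpsa added, merged symbols left out, and a level of at least 5 FPKM in at least 1 of 4 groups. FPKM, the unit of these tables, scales fragments to transcript length and library size, so levels of different genes can be compared per length. The rule gave 77 genes of the 15794 listed in any expression table, 45 of the large (60S) subunit and 32 of the small (40S) subunit. Of 78 symbols that matched, Rpl39l stayed outside, with 0.194, 0.230, 0.161 and 0.149 FPKM in the 4 groups. Rps15a was the lowest gene inside, with 37.1, 39.5, 38.8 and 39.5 FPKM, so no gene lay close to the minimum.

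RNA-seq libraries were made from total RNA, after removal of ribosomal RNA, of mouse hippocampal neurons cultured to 14 days in vitro (DIV). There were 8 samples, 2 in each of 4 groups, and all 4 groups received adeno-associated virus of serotype 2/9 with the synapsin I (SynI) promoter at 9 DIV and Accell siRNA from 10 DIV. The control group had virus encoding EGFP and non-targeting siRNA. The knockdown group had the EGFP virus and siRNA against Rbfox1 and Rbfox3, which encode RNA-binding regulators of splicing and mRNA. The cytoplasmic rescue had the same siRNA and a virus encoding Flag-tagged Rbfox1_C, and the nuclear rescue had it with Flag-tagged Rbfox1_N, both marked siMt in the labels. Separate cultures are not mentioned for the pairs of samples, and the tables give 1 value per group, so no replicate spread can be shown and p-values rest on the error model of the authors.

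Each ribosome carries 1 copy of most of its proteins, and cells therefore make these mRNAs in broadly similar amounts. Many of these mRNAs begin with a run of pyrimidines at the cap, the terminal oligopyrimidine (TOP) motif, through which the kinase mTOR and the protein Larp1 set their translation. In neurons a pool of ribosomes and of ribosomal protein mRNAs is also found in dendrites and axons.

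The siRNA targets checked the labels. Rbfox1 measured 25.7 FPKM in control, 1.94 in the knockdown, 16.1 in the cytoplasmic and 38.2 in the nuclear rescue, and Rbfox3 measured 12.4, 1.59, 1.59 and 1.53. The value of the Rbfox1 locus does not separate vector RNA from that of the endogenous gene. Neuronal markers summed to 2271, 2207, 2268 and 2272 FPKM over 11 genes, astrocyte markers to 1951, 2004, 1800 and 1845 over 10, oligodendrocyte lineage markers to 282, 298, 281 and 307 over 12, and microglial markers to 12.4, 7.20, 9.21 and 7.09 over 9. No marker in these lists was at 0, and glial markers were thus measured beside those of the labelled neurons.

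The start-site windows of the genes that lay at both ends of the ranking in the knockdown are shown first, since the TOP motif is the sequence by which this gene family is known. Each window runs from 15 bases before to 15 bases after the annotated gene start, 5′ to 3′ on the gene's strand, from RefSeq (GRCm38.p6). Capitals mark an unbroken run of at least 8 bases that are each C or T. Of the 10 genes of that choice, Rps3a had no entry, and Rps6 was added as the protein phosphorylated downstream of mTOR.

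Rps16 (chr7:28350674-28350703, + strand): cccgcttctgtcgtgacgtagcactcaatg

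Rps26 (chr10:128626492-128626521, - strand): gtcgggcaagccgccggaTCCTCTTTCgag

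Rps24 (chr14:24490663-24490692, + strand): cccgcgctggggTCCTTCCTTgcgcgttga

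Rpl36a (chrX:134585639-134585668, + strand): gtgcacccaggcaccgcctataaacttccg

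Rpl13a (chr7:45128731-45128760, - strand): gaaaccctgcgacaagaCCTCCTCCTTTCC

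Rpl41 (chr10:128549154-128549183, - strand): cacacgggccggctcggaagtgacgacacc

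Rps21 (chr2:180257364-180257393, + strand): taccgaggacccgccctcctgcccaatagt

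Rpl13 (chr8:123102335-123102364, + strand): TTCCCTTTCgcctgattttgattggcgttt

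Rpl10 (chrX:74270801-74270830, + strand): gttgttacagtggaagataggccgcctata

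Rps6 (chr4:86857353-86857382, - strand): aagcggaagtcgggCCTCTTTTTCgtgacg

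Runs stood in windows of Rps26 and Rps24, among the highest log2 ratios, and of Rpl13a and Rpl13, among the lowest. Rps16 and Rpl36a at the high end and Rpl41, Rps21 and Rpl10 at the low end had none. The place of Rpl13a is not resolved, since its ratio has an implied error of 6.08. The run of Rpl13 ended before the annotated start, so by that annotation it is not part of the mRNA. RefSeq promoter entries were found for 56 of the 77 genes. A run of at least 8 C or T on the gene strand that touched the stretch from 10 bases before to 15 after the start was present in 26 of the 56, or 46.4%. The share was 14.8% of other genes at 5 FPKM or more, 15.2% of all 27025 promoters, and 15.4% of 65 mitochondrial ribosomal protein genes. On the opposite strand it was 7.14% of the 56. This definition was chosen after the values were seen: 8 combinations of window and run length were looked at, with 35.7% to 87.5% of the ribosomal protein genes and 9.61% to 51.0% of other expressed genes holding a run. The median log2 ratio in the knockdown was 0.15 for the 26 genes with a run and 0.15 for the 30 without one. The starts are annotated ones and were not measured in these cultures, and the share with a run changed with the definition. This split therefore does not separate genes with a TOP motif from genes without one.

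Ribosomal protein mRNAs were among the abundant mRNAs of these cultures. The median of the 77 genes was 425 FPKM in control, 467 in the knockdown, 465 in the cytoplasmic rescue and 484 in the nuclear rescue, against 27.5, 27.6, 26.3 and 26.8 FPKM for 74 mitochondrial ribosomal protein genes. Between 63 and 66 of the 77 genes lay between 200 and 800 FPKM in each group. Large and small subunit genes had close medians in control, 423 and 437 FPKM.

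The highest level was that of Rpl41, which encodes a very short basic protein of the large subunit, at 1796, 1693, 1707 and 1776 FPKM in control, knockdown, cytoplasmic and nuclear rescue. Rpl38, a large subunit protein known for its part in the translation of Hox mRNAs, followed with 1080, 1253, 1227 and 1235 FPKM. Rplp1, an acidic protein of the stalk that recruits elongation factors, measured 1089, 1137, 1152 and 1191 FPKM. These 3 genes led in every group, and Rpl26 (846 to 942) and Rpl39 (844 to 878) came next by mean level.

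At the other end Rps15a was followed by Rpl22, which encodes an RNA-binding protein of the large subunit, at 90.2, 101, 93.9 and 94.6 FPKM. Rps27l measured 104, 121, 114 and 118, and Rps16 measured 115, 144, 136 and 204. The order was much the same in every group, with 4 of the 5 highest and 4 of the 5 lowest genes shared by all 4. Rps15a is 1 of 6 genes whose listed locus spans more than 10 kb, and the others are Rpl31, Rpl5, Rpl32, Rps27a and Rps25. The transcript length behind their FPKM is not given in the tables. The genes lie on 19 chromosomes, 14 of them on chromosome 7 and 4 on X.

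**Figure D1:**
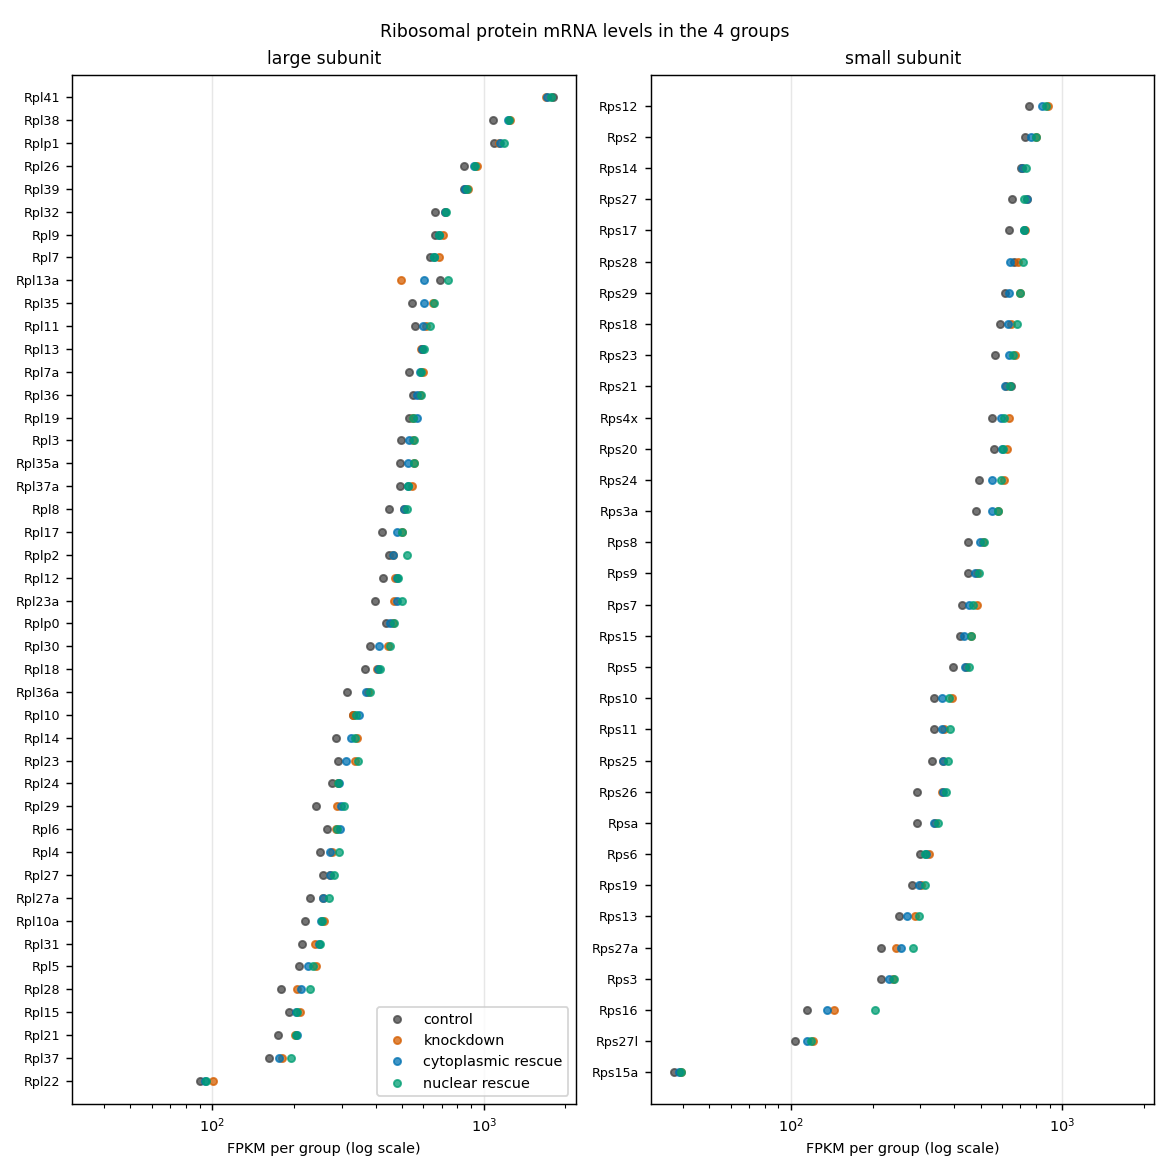
FPKM of the 77 ribosomal protein genes in the control, knockdown, cytoplasmic rescue and nuclear rescue groups, 1 combined value per group on a log axis, with the large subunit on the left and the small on the right and 1 gene left out. Control lies at or near the left end for most genes, Rpl41 is the highest at 1693 to 1796, and Rps15a is the lowest at 37.1 to 39.5.

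The first comparison asked what loss of Rbfox1 and Rbfox3 does to these mRNAs. Ribosomal protein mRNAs were slightly higher in the knockdown than in control, nearly all together, but no single gene passed the authors' test. The median log2 ratio was 0.16, with the middle 50% of the genes between 0.11 and 0.21, and 73 of 77 genes were above 0. Over all 8896 genes at 5 FPKM or more with a ratio the median was 0.02, and 56.6% were above 0. Summed over the 77 genes the level was 34573 FPKM in control and 37780 in the knockdown, 1.09 times control. None of the 77 genes (0) had q below 0.05 in the authors' deposited table, where 2.35% of all 15598 genes did. At unadjusted p below 0.05 there were 2 of 77, where 10.9% of all genes passed.

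The errors beside these ratios are the authors' fold change divided by their test statistic, called the implied error here. It comes from their model, not from values of single samples. Its median over the 77 genes was 0.15, about the size of the median ratio itself, and 37 of the 77 ratios (48.1%) were larger than their own error, against 34.5% over genes at 5 FPKM or more. A ratio above 0.2 was seen in 22 of the 77 genes, against 12.2% of genes at 5 FPKM or more. The 77 ratios come from the same libraries and are not independent of each other. In a culture of mixed cell types, fewer cells of a type and less RNA per cell cannot be told apart.

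Small subunit genes held the highest ratios. Rps16 (chromosome 7, 29135708 to 29137717 in mm9), a protein near the decoding centre, measured 115 FPKM in control and 144 in the knockdown, a log2 ratio of 0.32 with an implied error of 0.13 (p = 0.0132 and q = 0.409 in the authors' deposited table). Rps26 (chromosome 10, 128061585 to 128063562), which contacts mRNA upstream of the start codon at the exit of its channel, measured 291 and 361 FPKM, a log2 ratio of 0.31 with an implied error of 0.13 (p = 0.0186 and q = 0.493 in the authors' deposited table). These were the genes at unadjusted p below 0.05. Both were among the 72 of 77 genes that lay above control in all 3 other groups, and those ratios share the control value. Rps16 overlaps a row for LOC100302567, listed at 0, 41.5, 46.9 and 0 FPKM, and the part of that row in its value was not tested.

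Rps24, a small subunit protein mutated in some families with Diamond-Blackfan anaemia, measured 494 and 608 FPKM, a log2 ratio of 0.30 with an implied error of 0.17. Rps3a measured 480 and 581 FPKM (0.27), and Rpl36a, the highest of the large subunit, 313 and 376 FPKM (0.26). Rpsa, which is also known as the laminin receptor precursor, went from 291 to 339 FPKM (0.22), and Rps6 from 299 to 323 (0.11). None of these passed the test. Rps4x, encoded on the X chromosome, measured 551 and 634 FPKM (0.20). Rps27 and its paralog Rps27l, a target of p53, measured 654 and 741 (0.18) and 104 and 121 FPKM (0.22), the first close to the median of the list and the second above the middle 50%.

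The acidic stalk genes lay below the median of the list. Rplp0 measured 436 and 463 FPKM (log2 ratio 0.09), Rplp1 1089 and 1137 (0.06) and Rplp2 447 and 464 (0.06). Their implied errors were 0.19, 0.16 and 0.14, wider than the ratios.

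Rpl13a, Rpl41, Rps21 and Rpl13 were below 0 in the knockdown. Rpl13a, a large subunit protein known for release from the ribosome under interferon, measured 690 FPKM in control, 497 in the knockdown, 600 in the cytoplasmic and 738 in the nuclear rescue. Its log2 ratio of -0.47 has an implied error of 6.08, so this gene was not resolved, and it was the 1 gene of the list with an error above 1. Its locus (chromosome 7, 52380933 to 52384115) overlaps rows for the small nucleolar RNAs Snord35a, Snord34 and Snord32a. Snord32a was listed at 230, 116, 98.0 and 249 FPKM, and Snord35a at 65.3, 59.0, 58.1 and 73.0. Snord34 was listed at 383, 0 and 892 FPKM in control, knockdown and cytoplasmic rescue, with no value in the nuclear rescue. The part of these RNAs in the value of Rpl13a was not tested. Rpl41 measured 1796 and 1693 FPKM (-0.08), Rps21 646 and 620 (-0.06) and Rpl13 595 and 587 (-0.02), each within its implied error of 0.18, 0.14 and 0.16. Rpl10 was next at 329 and 330 FPKM, a log2 ratio of 0.01. Overlaps with small RNA rows were common in the family, in 21 of the 77 genes, and the median ratio without those 21 was 0.16.

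**Figure D2:**
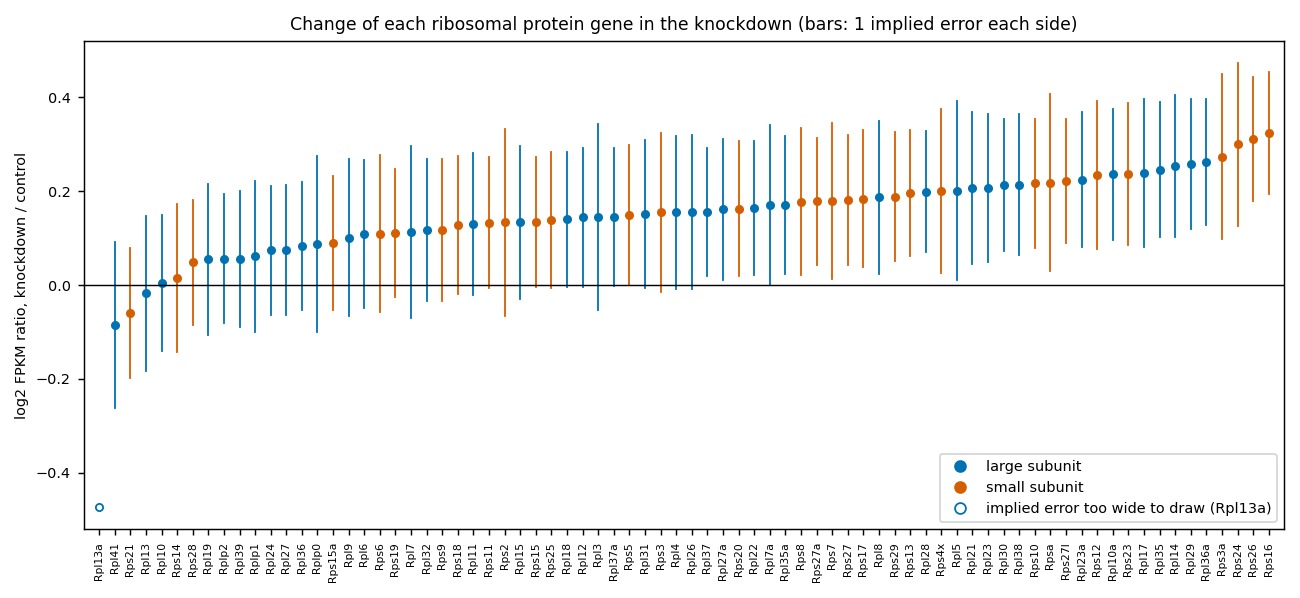
Log2 ratio of FPKM, knockdown over control, for the 77 ribosomal protein genes, 1 of them left out, in rising order, with bars of 1 implied error on each side. All but 4 points lie above 0, most bars reach close to 0, and the error of Rpl13a (6.08) is too wide for the axis and is not drawn.

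Large and small subunit genes had similar medians, 0.15 over 45 genes and 0.18 over 32. Level accompanied the ratio only weakly among the 77 genes (Spearman's rho -0.24, given as a description, since all points share their libraries). The median ratio of 728 other genes at 100 FPKM or more was -0.01. Ribosomal protein mRNAs are short, with a median GENCODE transcript of 886 bases against 3012 for other genes at 5 FPKM or more, and among the 77 genes transcript length and the ratio had a rho of 0.11. The longest ribosomal protein transcript was 5179 bases. For 597 other genes at 100 FPKM or more with transcripts up to that length, the median ratio was 0.00246. The limit lies above the median length of other genes, so these 597 genes are not matched in length to the ribosomal protein mRNAs. That limit, like the one at 100 FPKM, was set after the values were seen.

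Other parts of the translation machinery were described the same way. Translation factors and related TOP mRNAs had a median log2 ratio of 0.13, with 15 of 17 above 0 and 0 called. Eif3h, a subunit of initiation factor eIF3, was the highest at 76.9 and 94.7 FPKM (0.30), and Eif4a2, an RNA helicase of initiation, the lowest at 269 and 248 (-0.12). Ribosome biogenesis genes, which act in the nucleolus, had a median of 0.13, with 38 of 43 above 0 and 0 called. Fbl, the methyltransferase of ribosomal RNA, measured 9.66 and 12.9 FPKM (0.42), and Pno1, needed to mature the small subunit, 24.1 and 19.4 (-0.31). Initiation factors outside the TOP list had a median of 0.10, with 21 of 24 above 0 and 0 called, from Eif4h at 192 and 172 FPKM (-0.15) to Eif2s2 at 28.1 and 34.2 (0.28).

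Mitochondrial ribosomal protein genes had a median of 0.02, with 45 of 74 above 0 and 0 called, which is close to that of all expressed genes. They ranged from Mrpl48, at 76.6 and 65.5 FPKM (-0.23), to Mrps27, at 7.22 and 8.64 (0.26). Genes of the mTOR pathway that controls TOP mRNAs were listed together with the transcription factor genes Myc, Max and Mycn. This list had a median of 0.02, with 17 of 29 above 0 and 0 called. Rptor, the scaffold of mTOR complex 1, was the lowest at 8.71 and 7.50 FPKM (-0.22) and Mycn, a transcription factor for ribosome genes, the highest at 3.89 and 5.27 (0.44). Host genes of small nucleolar RNAs with TOP starts had a median of -0.0029 over 6 genes and genes of the p53 response to nucleolar stress 0.02 over 9, with 0 called in either. Ribosome genes outside the naming rule gave 0 called of 6, with Gnb2l1 at 334 and 370 FPKM (0.15) and Rpl22l1 at 169 and 154 (-0.13).

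Cell type markers moved in the same table. Among neuronal markers Nefm, a neurofilament, fell from 13.8 to 8.02 FPKM along with the siRNA target Rbfox3, 2 called of 11. Of these 11 markers, 3 were above 0, with a highest log2 ratio of 0.48. Of the oligodendrocyte lineage 4 of 12 were called, among which the myelin genes Mbp (11.6 to 22.6) and Mag (0.538 to 1.95) rose and Gpr17 (8.60 to 4.12) fell. Of microglial markers Csf1r, C1qc and C1qa fell, 3 of 9. No marker of 10 for astrocytes and none of 10 for proliferation was called. Proliferation markers had a median log2 ratio of 0.20 in the knockdown, larger than that of the ribosomal protein genes, with 9 of 10 above 0 and 4 at unadjusted p below 0.05. Birc5, a mitotic regulator, measured 8.17 and 10.8 FPKM, and the list summed to 178 FPKM in control and 198 to 199 in the other groups. The medians of the other marker lists were -0.24 for neurons (Rbfox3 included), 0.02 for astrocytes, 0.19 for the oligodendrocyte lineage and -0.83 for microglia. The part of these cells in the ribosomal protein levels was not tested.

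**Figure D3:**
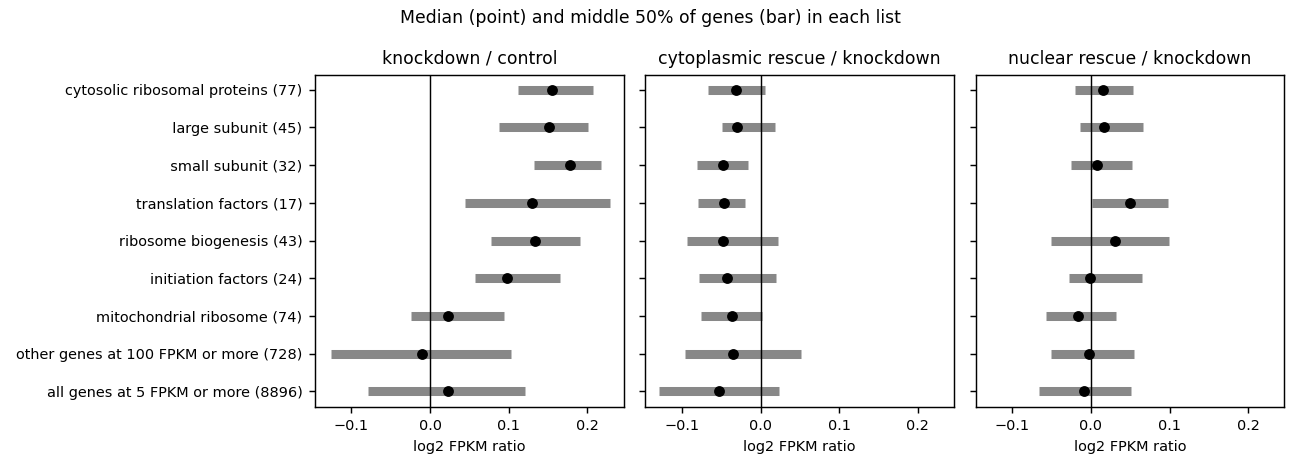
Median log2 ratio of FPKM (points) and range of the middle 50% of genes (bars) for ribosomal proteins, related gene lists and all expressed genes in the 3 comparisons, with the number of genes in the knockdown table in brackets. In the knockdown the ribosomal protein median is 0.16 beside 0.02 for mitochondrial ribosomal proteins, and in both rescues the medians of the lists drawn lie within 0.1 of 0.

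The second comparison asked what the cytoplasmic isoform changes on top of the knockdown. Levels of ribosomal protein mRNAs stayed close to those of the knockdown. The median log2 ratio was -0.03, with 21 of 77 genes above 0, and its sign depended on scaling, since it was 0.02 after division by the upper quartile of each group and 0.02 relative to the median of genes at 5 FPKM or more. That median of all expressed genes was itself -0.05, with 31.7% above 0. None of the 77 genes (0) had q below 0.05 in the authors' deposited table, where 0.506% of all genes did, and 0 of 77 had unadjusted p below 0.05, where 5.33% did. Ratios within 0.1 of 0 were seen in 69 of the 77 genes, against 54.8% of genes at 5 FPKM or more, while the median implied error was 0.17. The knockdown group is the reference here and the numerator in the first comparison, so the ratios of both tables share its error.

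The lowest ratios were those of Rps24 (608 FPKM in the knockdown and 552 in the rescue, -0.14) and Rps29, a small protein with a zinc-binding fold (698 and 634, -0.14). Rpl23 (336 and 310, -0.12), Rps10 (390 and 361, -0.11) and Rpl35 (648 and 602, -0.11) followed. Each was smaller than its implied error of 0.15 to 0.19. Apart from the unresolved Rpl13a (0.27, implied error 7.15), the highest were Rpl10 (330 and 346, 0.07), Rps27a, which encodes a fusion with ubiquitin (244 and 254, 0.06), Rpl28 (205 and 213, 0.05) and Rpl31 (238 and 247, 0.05). Small subunit genes had a median of -0.05 with 3 of 32 above 0, and large subunit genes one of -0.03 with 18 of 45 above 0, both of them above the -0.05 of all expressed genes, so that these signs too turn when that median is subtracted.

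The third comparison set the nuclear isoform against the same knockdown samples. Here too levels stayed close to the knockdown, apart from Rps16, which was higher without passing the adjusted test. The median log2 ratio was 0.01, with 48 of 77 genes above 0, beside -0.01 and 46.0% over genes at 5 FPKM or more. Again none of the 77 (0) had q below 0.05 in the authors' deposited table, where 0.11% of all genes did. At unadjusted p below 0.05 there was 1 of 77, where 1.05% of all genes passed, and 69 of 77 lay within 0.1 of 0, against 73.0% of expressed genes.

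Rps16 measured 115 FPKM in control, 144 in the knockdown, 136 in the cytoplasmic rescue and 204 in the nuclear rescue. The nuclear rescue stood apart from the other groups. Its log2 ratio to the knockdown was 0.50 with an implied error of 0.15, p = 0.00086 and q = 0.0694 in the authors' deposited table. The Benjamini-Hochberg adjusted p within that table alone was 0.702. In the authors' test p = 0.0710 came with q = 0.909 both in the knockdown and in the cytoplasmic rescue. The authors' q was thus not adjusted within 1 comparison alone. The overlapping LOC100302567 was listed at 41.5 FPKM in the knockdown, 46.9 in the cytoplasmic rescue and 0 in the nuclear rescue. Its part in the value of Rps16 was not tested.

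The other high ratios were those of Rps27a (244 FPKM in the knockdown and 281 in the rescue, 0.20), Rplp2 (464 and 523, 0.17) and Rpl28 (205 and 229, 0.16), with implied errors of 0.17, 0.17 and 0.15. Rpl13a had the highest ratio of the list, 0.57, with an implied error of 13.7. The lowest were Rpl22 (101 and 94.6, -0.09), Rpl7 (684 and 657, -0.06), Rps4x (634 and 609, -0.06), Rps20 (626 and 605, -0.05) and Rpl9 (707 and 685, -0.05), all within their implied errors of 0.18 to 0.27. Large and small subunit medians were 0.02 and 0.01.

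Both rescue groups were above control, as the knockdown did. The summed level was 1.07 times control in the cytoplasmic and 1.11 times in the nuclear rescue. Against control the median log2 ratio of the 77 genes was 0.11 in the cytoplasmic rescue, with 72 above 0, and 0.18 in the nuclear rescue, with 75 above 0. Over genes at 5 FPKM or more it was -0.03 and 0.01. No deposited table compares the rescues with control, so these ratios carry no test. In all, 72 of the 77 genes were higher in each of the other 3 groups than in control, against 32.4% of 8930 expressed genes. The exceptions were Rpl13, Rpl13a, Rpl41, Rps21 and Rps28. These ratios all share the control value.

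**Figure D4:**
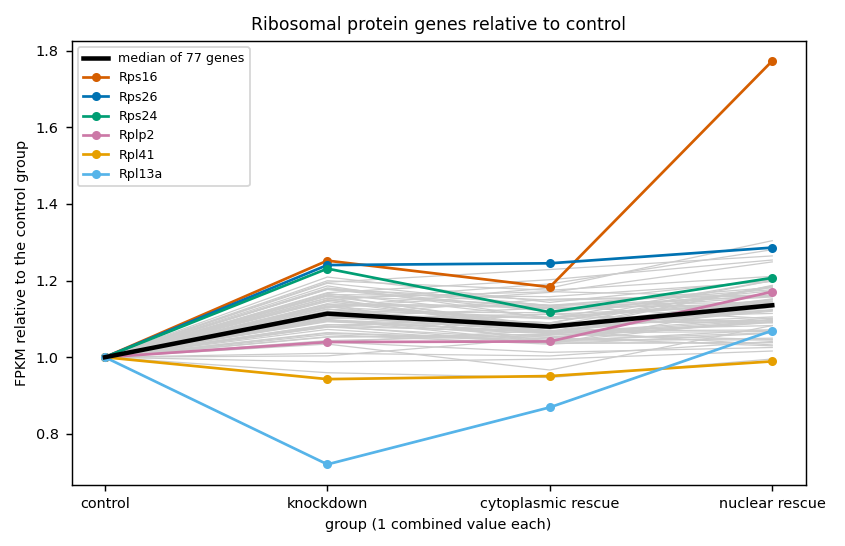
FPKM relative to control in the 4 groups, with 77 grey lines for the ribosomal protein genes, the median in black and 6 genes in colour. The median lies above 1 in the knockdown and both rescues, Rps16 is highest in the nuclear rescue (204 against 115 FPKM), and Rpl13a is lowest in the knockdown (497 against 690).

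The rescues were set against each other by subtracting their deposited log2 ratios. A two-sided z test used the square root of the summed squares of both implied errors, with Benjamini-Hochberg adjustment over 15365 genes. Of the 77 genes 0 were called, where 0.026% of all genes were, and 1 had unadjusted p below 0.05, where 0.794% did. That gene was Rps16, with a difference (nuclear minus cytoplasmic) of 0.58 and an error of 0.21. The median difference of the 77 genes was 0.05, with 70 higher in the nuclear rescue. Over genes at 5 FPKM or more it was 0.04, with 66.0% higher. The test counts the shared knockdown error in both terms and so is conservative. Rbfox1 measured 16.1 FPKM in the cytoplasmic and 38.2 in the nuclear rescue, so the isoform and its amount cannot be told apart here.

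The deposited tables of cassette exons list 214 exons for the knockdown, 150 for the cytoplasmic and 318 for the nuclear rescue, and only exons that the authors called. Of these 0, 0 and 1 belonged to a ribosomal protein gene, in a family that makes up 0.488% of the genes in the expression tables, so these counts are too small to set the family apart. The 1 exon was an 18-base exon near the 3′ end of Rps24 (chr14:25313274-25313291 in mm9, + strand), in one of the genes with the highest ratios in the knockdown. It matches exon 5 of the GENCODE transcript Rps24-205 at chr14:24494052-24494069 in GRCm38, and its sequence is shown because the annotated coding sequence ends within it. The last 12 bases of the exon before are in lower case and the alternative exon in capitals.

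Rps24 alternative exon: gctggcaaaaagAAATGAAATACCTAGCAG

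The coding sequence ends after the first 3 bases of the exon, so the rest of it is the stop codon and 3′ untranslated sequence. In the authors' deposited table the inclusion fraction was 0.073 in the knockdown and 0.188 in the nuclear rescue, with the authors' p = 6.2e-08. Reads joining the exon before to the 18-base exon numbered 117 in the knockdown and 316 in the nuclear rescue. Reads joining it to the exon after numbered 4 and 10, and reads skipping it 27 and 25. Both inclusion junctions held more reads in the nuclear rescue, while skipping reads were nearly equal.

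As a share of these junction reads, inclusion was 81.8% in the knockdown (95% Wilson interval 74.8% to 87.1%, 148 reads) and 92.9% in the nuclear rescue (89.7% to 95.1%, 351 reads). Fisher's exact test on inclusion and skipping reads, two-sided, gave p = 3.71e-04, and 0.00103 after Benjamini-Hochberg adjustment over the 318 listed exons. The list holds only exons that the authors called, so the adjustment does not correct for the exons left off it. The test compares pooled libraries and covers counting error only. It rests on reads that also went into the authors' call and is no separate check of that call. The junction shares are far above the deposited inclusion fractions. Coverage of the exon was 19.6% of that of the exon before in the knockdown and 22.7% in the nuclear rescue, which is nearer to those fractions and differs less between the groups. The 2 inclusion junctions are very unequal, and in Rps24-205 a 20-base exon lies between the 18-base exon and the exon after it. The level of Rps24 as a whole was 608 FPKM in the knockdown and 596 in the nuclear rescue.

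**Figure D5:**
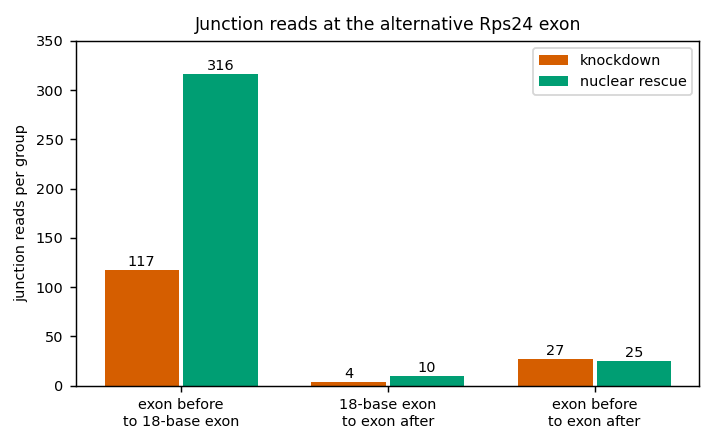
Junction reads at the 18-base exon of Rps24 in the knockdown and the nuclear rescue, as bars of pooled read counts with no error shown. Reads from the exon before into the exon were 117 and 316, while reads skipping it were 27 and 25.

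The hexamer TGCATG, known as the binding element of Rbfox proteins, was searched on the transcript strand in annotated 3′ untranslated regions. It was present in 10 of the 77 genes, or 13.0%, and in 35.7% of 7781 other genes at 5 FPKM or more. These regions differ in length, with medians of 92 and 1081 bases, so the shares cannot be compared as they stand. The motif and the transcript chosen (the longest of the principal GENCODE transcripts) were picked after the values were seen, and a match is not a binding site.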

How the data were processed

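Paired-end reads of 50 nt without strand information were obtained from 8 samples. The submitters' processing notes name CASAVA, Cufflinks and the mouse build mm9, without versions. Deposited by the authors were 3 expression tables with 1 FPKM value per group, the log2 fold change (treated as a score, because a placeholder stands where a group is 0), a test statistic score, a p-value and q-value. They also deposited 3 splicing tables, called with SpliceTrap per the file names, with inclusion fractions, a splice change score, authors' p-value, junction read counts and coverage signal. Another 42 value columns were not used. Library totals were not used here, so depth is unknown.

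Calls were the authors' q below 0.05. A limma fit per library had been planned and was not run, since only group values are given. Implied errors, medians and the z test were computed with Python 3.11.15, numpy 2.4.6, pandas 2.3.3 and scipy 1.17.1, and figures with matplotlib 3.10.9; the z test was tested on simulated data. Locus starts were changed from counting from 0 to counting from 1. Genes were named by rule: the 5 highest and 5 lowest ratios per table, the 5 highest and lowest mean levels, all called genes, the stalk genes, Rpsa, Rps6, letter paralogs, the neighbours of the FPKM minimum, and the extremes of each other list. Rps28, Gnb2l1 and the genes with long loci were named after their values were seen. Some genes that the rule names are not reported here. The members and the lists were chosen with earlier results of these data known. Alternatives covered the threshold, adjustment, FPKM minimum, pseudocount of 1, scaling and member rule.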

Additional observations from a re-analysis of the deposited data

How the results depend on the processing

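The count of called ribosomal protein genes stayed at 0 in all 3 tables with Benjamini-Hochberg adjustment within each table. Other settings could not have given another count. With 0 calls at q below 0.05, q below 0.01 could only give 0, in the 3 tables and between the rescues. The same holds, in the 3 tables, when log2(FPKM + 1) also had to differ by 0.5 or more. FPKM minimums of 1 and 20 (between the rescues only 1 was tried) kept the same genes. Without adjustment (p below 0.05) the count was 2 in the knockdown, 0 in the cytoplasmic rescue, 1 in the nuclear rescue and 1 between the rescues. The median log2 ratio in the knockdown stayed between 0.13 and 0.17 over 11 alternatives, and in the nuclear rescue between 0.01 and 0.02. In the cytoplasmic rescue it ran from -0.03 to 0.02 and was above 0 in 3 of 11, those that rescale the groups. Some of the 11 could show little. Both FPKM minimums kept the same genes and so the same medians. Leaving out loci under 300 bases or symbols at more than 1 locus also returned the main medians unchanged. A pseudocount of 1 is small beside these levels. Alternatives without Rpl13a, without loci over 10 kb, without genes overlapping small RNA rows, and relative to other genes at 100 FPKM or more were chosen after seeing the data. No paired analysis was possible because the tables hold 1 value per group, and for the same reason no replicate could be left out.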
